A study of Glycine max with 12 samples.

Results

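The genes described here are 5 abundant nuclear genes of RuBisCO in soybean leaves, chosen by name out of 46446 genes in the deposited table: 3 that encode small chains of the enzyme (Glyma.19G046800, Glyma.19G046600 and Glyma.13G046200) and 2 that encode RuBisCO activase (Glyma.11G221000 and Glyma.18G036400). Their identifiers place them on chromosomes 19, 13, 11 and 18 of the Wm82.a4.v1 annotation, whose suffix is left out here, and Glyma.18G036400 is listed with 2 transcripts. Leaf mRNA of the cultivar HN95 (genotype WT) was sequenced in 12 libraries, 3 for each of 4 groups. Every plant, controls included, had received 3 L of a saline-alkali solution that held the chloride and the carbonate of sodium at 40 mM each and its bicarbonate (NaHCO3) and sulphate (Na2SO4) at 320 mM each. The groups were a stressed control, stressed plants whose leaves were sprayed with 200 mg/L nano-SiO2, with 300 µM melatonin (MT), or with both at these doses (nano-SiO2+MT), and leaves were taken 7 days after spraying. The labels do not say whether control leaves were sprayed with water.

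RuBisCO fixes carbon dioxide in the Calvin cycle and is the most abundant protein of most leaves. In plants the enzyme is built from large chains, encoded in the chloroplast genome, and small chains, encoded by a small family of nuclear genes whose products are imported into the chloroplast. The active site can be blocked by sugar phosphates, and RuBisCO activase, a nuclear-encoded ATPase, removes them. Small chain genes are known to be transcribed in mesophyll cells in response to light. Activase is known to lose function at high temperature.

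Values are FPKM, read fragments divided by gene length and by library total, so levels can be set side by side between genes. Summed FPKM per library ran from 522119.8 to 559092, between 25557 and 27660 genes reached 1 FPKM in a library, and the relative depth read from the steps between low values was 0.848 to 1.27. Markers fitted the leaf label: 36 of 37 mesophyll genes (small chains, chlorophyll a-b binding proteins, plastocyanin) reached 1 FPKM, and the summed FPKM of 6 seed storage and oleosin genes stayed at or below 0.254 in every library. That mesophyll list includes the 3 small chain genes described here, which were chosen as abundant genes. Of 12 genes matched by root and nodule words, 5 reached 1 FPKM, led by the nodulin-26 gene Glyma.03G185900 at a mean of 218 FPKM. Summed FPKM of 73 xylem and secondary wall genes, of which 55 reached 1 FPKM, was 173 to 286 in the controls, 213 to 485 with nano-SiO2, 67.7 to 99.9 with MT and 79.6 to 231 with both. The sum over 19 epidermis and guard cell genes, of which 6 reached 1 FPKM, was 66.5 to 78.0, 62.7 to 89.1, 37.8 to 40.4 and 46.9 to 56.4 in the same order. Whether tissue makeup has a part in the RuBisCO values was not tested, and in bulk leaf RNA fewer cells of a type cannot be told apart from less RNA per cell.

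The small chain genes were the 3 most abundant genes of the whole table in every library. Glyma.19G046800, described as small chain 4, was first in 12 of 12 libraries, with 18820.3, 12411 and 11253 FPKM in control 1, 2 and 3, 11377, 4299 and 10802 FPKM in the nano-SiO2 libraries, 14167, 15519 and 10057 FPKM in the MT libraries and 14280.2, 17138 and 11637 FPKM in the nano-SiO2+MT libraries. Control 1 stood highest and nano-SiO2 2 lowest, and the other 10 libraries lay between these with wide overlap among groups, except that the nano-SiO2 and nano-SiO2+MT libraries did not overlap. Group means were 14161 ± 4076 FPKM in the controls, 8826 ± 3931 with nano-SiO2, 13248 ± 2845 with MT and 14352 ± 2751 with both (SD, n = 3 each).

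Glyma.19G046600 carries the same small chain 4 description and lies on the same chromosome. It was second in every library, with 17059.7, 10961 and 9735 FPKM in the controls, 9494, 4243 and 9406 FPKM with nano-SiO2, 12270.5, 14453 and 8925 FPKM with MT and 12974, 15309.9 and 9969.8 FPKM with both. All 3 nano-SiO2 libraries were below all 3 controls and below all 3 nano-SiO2+MT libraries, whereas the MT range spanned the lowest control. Its group means were 12585 ± 3923, 7715 ± 3007, 11883 ± 2784 and 12751 ± 2677 FPKM for control, nano-SiO2, MT and nano-SiO2+MT.

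Glyma.13G046200, described as small chain 1, came next, at rank 3 in every library. Its FPKM was 11643, 8249 and 7186 in the controls, 6884, 4013 and 6720.1 with nano-SiO2, 9131, 9366 and 6564 with MT and 8706, 10424 and 7167 with both. The arrangement was that of Glyma.19G046600: the nano-SiO2 libraries lay below the controls and the nano-SiO2+MT libraries, and MT 3 fell among the nano-SiO2 libraries. Group means were 9026 ± 2328, 5873 ± 1612, 8353 ± 1555 and 8766 ± 1629 FPKM in the same order of groups. The labels and file headers do not say how the authors divided reads between similar copies, so the split between Glyma.19G046800 and Glyma.19G046600, and between the pair of activases, is uncertain where their sequences are alike.

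The activases were lower than every small chain in 12 of 12 libraries and varied less. Glyma.11G221000 ranked 5 or 6, with 4733, 3832 and 3624 FPKM in the controls, 3843, 3430.3 and 4134 FPKM with nano-SiO2, 5420.5, 4907 and 3989.7 FPKM with MT and 5096, 4927 and 4595 FPKM with both. Control and nano-SiO2 libraries overlapped, MT libraries reached highest, and every nano-SiO2+MT library was above every nano-SiO2 library. Group means were 4063 ± 589, 3802 ± 353, 4772 ± 725 and 4873 ± 255 FPKM.

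Glyma.18G036400, the other activase, ranked between 6 and 10. It had 3752, 2958 and 2775 FPKM in the controls, 3114, 2619 and 3596 FPKM with nano-SiO2, 4261, 3913 and 2867 FPKM with MT and 4071, 3911 and 3837 FPKM with both. The nano-SiO2+MT libraries were the most alike and lay above all controls and all nano-SiO2 libraries, while the MT libraries spread over nearly the whole range. Group means were 3162 ± 519, 3109.7 ± 488, 3681 ± 725 and 3939.6 ± 119 FPKM. Glyma.11G221000 exceeded Glyma.18G036400 in 12 of 12 libraries, by a ratio of 1.15 to 1.39.

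**Figure D1:**
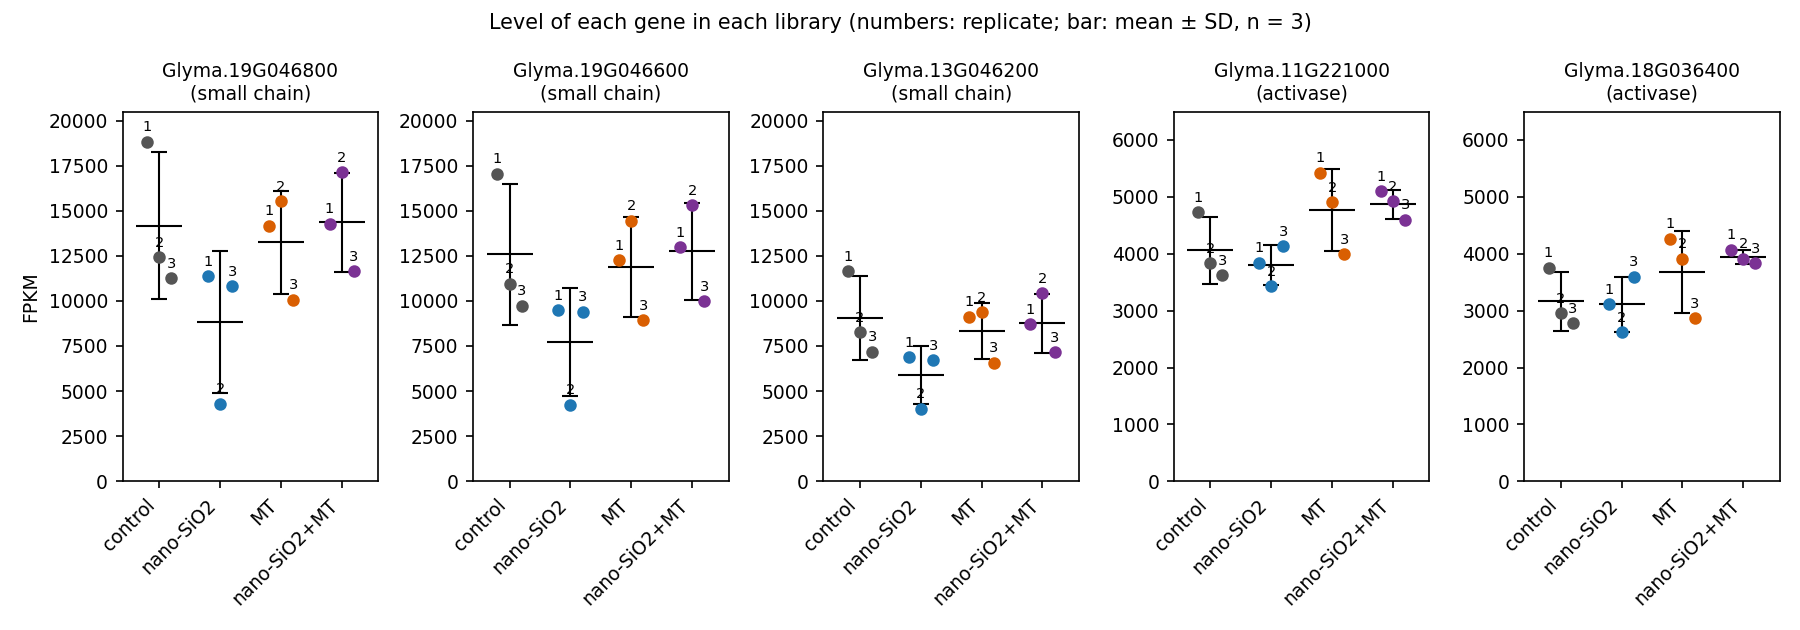
FPKM (y axis, from 0; the small chain and activase panels have different ranges) of the 5 genes in each library of the 4 groups (x axis); points are libraries with their replicate number, and bars are the mean ± SD of 3 libraries. Control 1 is the highest control and nano-SiO2 2 the lowest nano-SiO2 library in every panel, and the small chain panels spread wider than the activase panels.

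Over all 12 libraries the mean levels were 12647, 11233 and 8004 FPKM for the small chains in the order above and 4378 and 3473 FPKM for the activases. The order of the small chains, Glyma.19G046800 above Glyma.19G046600 above Glyma.13G046200, held in 12 of 12 libraries, although the control means of the first pair lay closer together than the SD of either gene among the controls. The gene between the small chains and the activases in mean rank was an antenna gene, Glyma.05G128000, a chlorophyll a/b-binding protein of 5069 FPKM, and another antenna gene, Glyma.08G082900 at 3508 FPKM, stood between the activases. All 5 RuBisCO genes were among the 20 most abundant genes. No gene of the table is described as a RuBisCO large chain (0 genes), so small chain levels could not be set beside it.

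Together the 5 genes held 10.0%, 7.23% and 6.55% of summed FPKM in the controls, 6.47%, 3.49% and 6.64% with nano-SiO2, 8.21%, 8.81% and 5.90% with MT and 8.30%, 9.44% and 6.93% with both. The highest and lowest shares again belonged to control 1 and nano-SiO2 2, and the ranges of all groups but the nano-SiO2 pair with nano-SiO2+MT overlapped. Group means were 7.93% ± 1.84, 5.53% ± 1.77, 7.64% ± 1.53 and 8.22% ± 1.25 (SD, n = 3). Small chains made up most of this share and most of its movement, at 2.36% in nano-SiO2 2 to 8.50% in control 1, while the activases stayed between 1.13% and 1.76%. The RuBisCO genes held 36.7% to 56.3% of the FPKM of the 20 most abundant genes. The other 15 of these held 6.01% to 8.02% of summed FPKM.

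**Figure D2:**
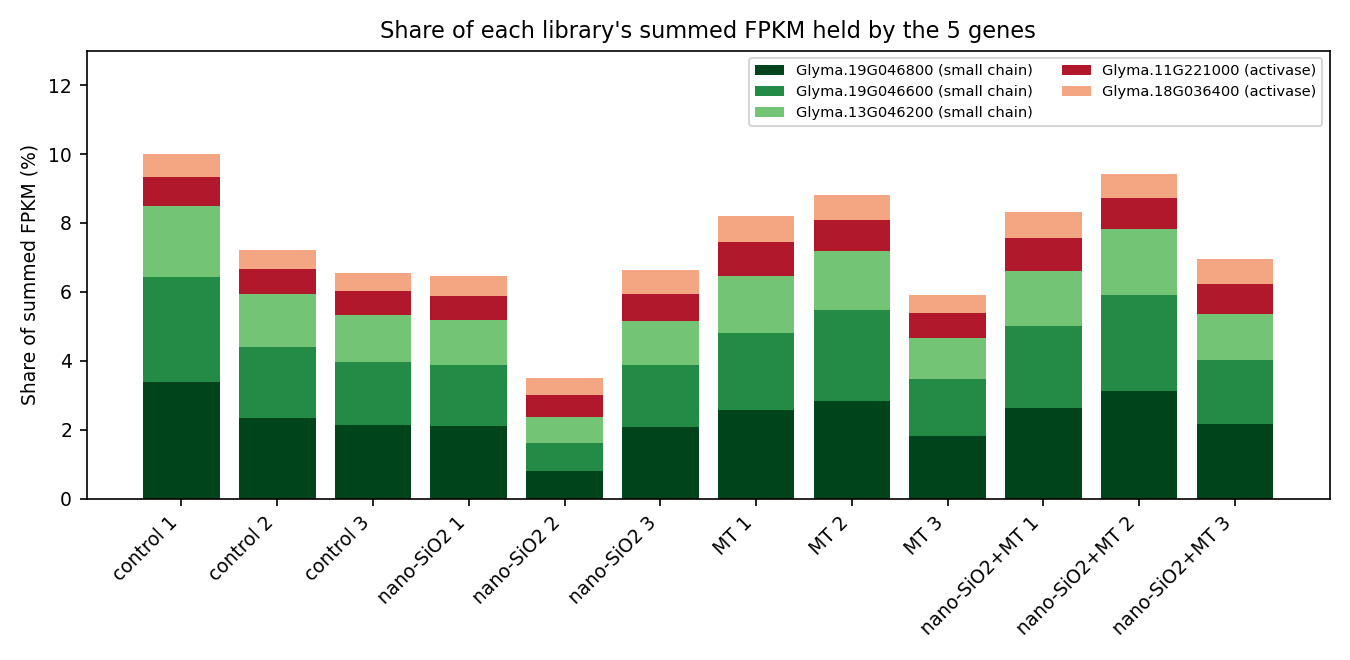
Share of each library's summed FPKM in percent (y axis, from 0) held by the 5 genes, stacked by gene, for the 12 libraries (x axis). The stacked share runs from 3.49% in nano-SiO2 2 to 10.0% in control 1, and the activase segments stay between 1.13% and 1.76% in sum.

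Activase FPKM relative to small chain FPKM (sum of 2 genes over sum of 3) was 0.179, 0.215 and 0.227 in the controls, 0.251, 0.482 and 0.287 with nano-SiO2, 0.272, 0.224 and 0.268 with MT and 0.255, 0.206 and 0.293 with both. Every nano-SiO2 library was above every control, and MT and nano-SiO2+MT libraries overlapped the controls. Group means were 0.207 ± 0.0252, 0.340 ± 0.124, 0.255 ± 0.0267 and 0.251 ± 0.0436, and the largest ratio, in nano-SiO2 2, went with that library's low small chain level. The mixture of small chain transcripts was nearly fixed. In 11 libraries Glyma.19G046800 held 39.2% to 41.0% of the small chain FPKM, Glyma.19G046600 held 34.2% to 36.7% and Glyma.13G046200 held 23.8% to 26.1%, whereas in nano-SiO2 2 they held 34.2%, 33.8% and 32.0%. In that library the 3 genes were thus close to equal, since small chain 1 was reduced less than both small chain 4 genes.

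**Figure D3:**
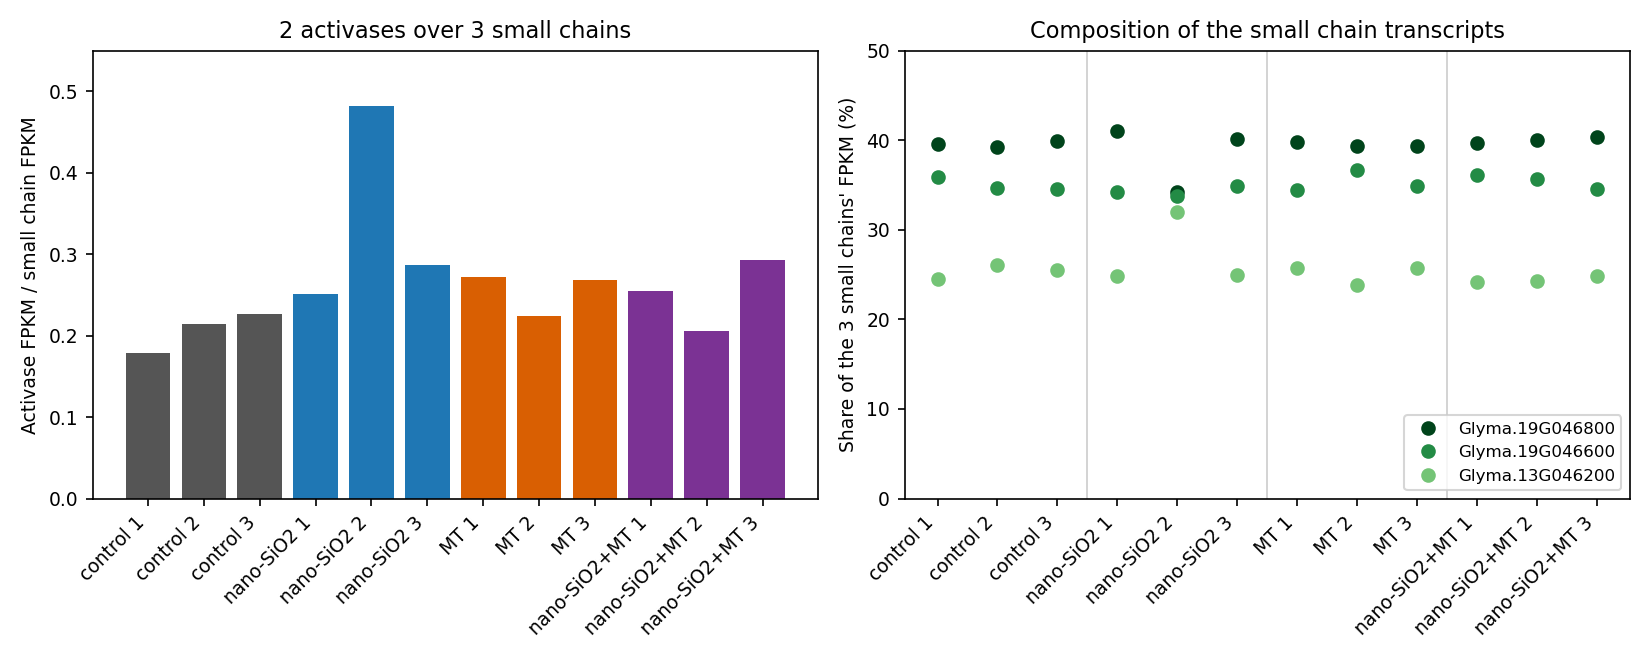
Left, summed FPKM of the 2 activases over that of the 3 small chains (y axis, from 0) in each library, coloured by group; right, share of the 3 small chains' FPKM in percent held by each small chain gene. The left panel peaks at 0.482 in nano-SiO2 2, and in the right panel the small chain shares keep to narrow bands except in that library.

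The libraries that stood apart did so for most RuBisCO genes at once. In nano-SiO2 2 the FPKM was 38.8% of the mean of the other nano-SiO2 libraries for Glyma.19G046800, 44.9% for Glyma.19G046600 and 59.0% for Glyma.13G046200, but 86.0% for Glyma.11G221000 and 78.1% for Glyma.18G036400. All 5 genes had their lowest value of the 12 libraries there. Of 48 genes with a mean of at least 1000 FPKM, 24 were lowest in nano-SiO2 2 and 22 highest in control 1, so these extremes were shared by many abundant genes. Among the 48, the steepest drop of nano-SiO2 2 against its group was that of Glyma.19G046800, followed by Glyma.08G082900 (44.2%), a chlorophyll a-b binding protein, and the other small chains. Control 1 had 151% to 165% of the mean of the other controls for the small chains and 127% and 131% for the activases. MT 3 had 66.8% to 77.3% of the mean of the other MT libraries over the 5 genes. No batch label sets nano-SiO2 2 or control 1 apart, and whether they were handled differently was not tested. The depth of nano-SiO2 2 relative to the mean was 1.04 and that of control 1 was 0.950.

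Spread within groups separated the gene kinds. The pooled within-group SD of log2(FPKM + 1) was 0.49 for Glyma.19G046800, 0.46 for Glyma.19G046600 and 0.35 for Glyma.13G046200, against 0.17 for Glyma.11G221000 and 0.22 for Glyma.18G036400. The median of this SD was 0.22 over the 48 genes of at least 1000 FPKM and 0.20 over all 28260 tested genes. None of the 48 genes (0) had a larger SD than Glyma.19G046800, 2 had a larger one than Glyma.19G046600 and 10 than Glyma.13G046200, while 35 exceeded Glyma.11G221000. One library carried much of this. Without nano-SiO2 2 the SDs were 0.31, 0.34 and 0.28 for the small chains and 0.17 and 0.21 for the activases, and 12, 8 and 15 of the 48 genes then exceeded the respective small chains.

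**Figure D4:**
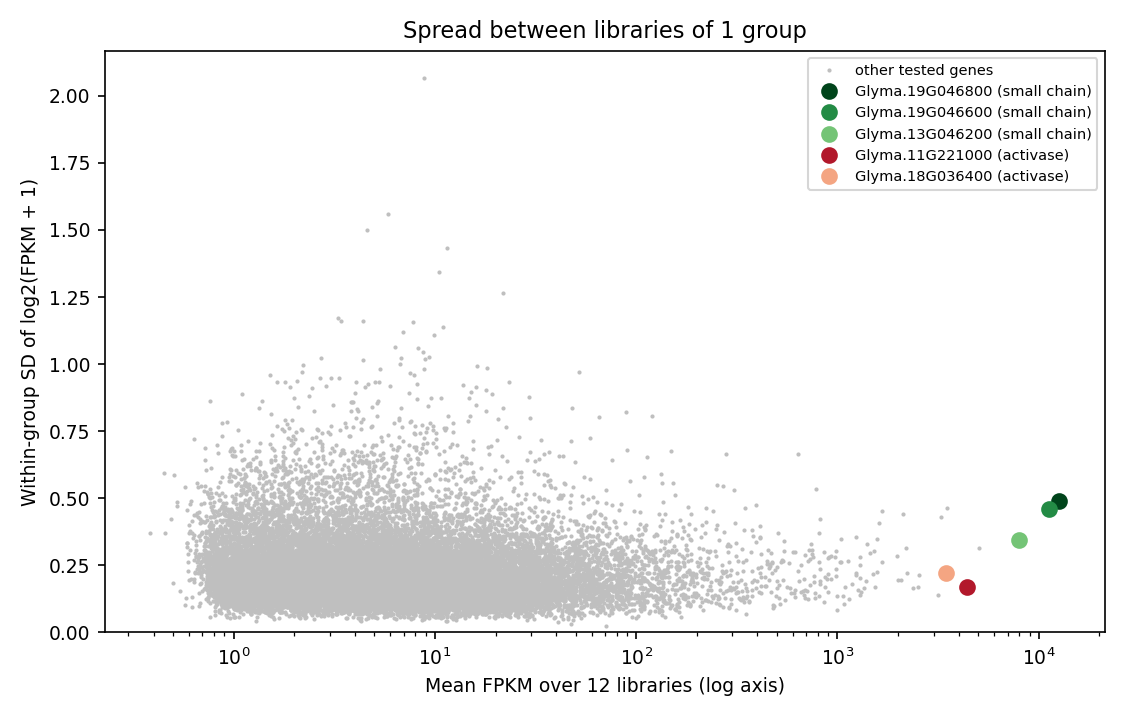
Pooled within-group SD of log2(FPKM + 1) (y axis) against mean FPKM over 12 libraries (x axis, log scale) for all 28260 tested genes (grey) and the 5 RuBisCO genes (coloured). The small chains lie at 0.35 to 0.49 and the activases at 0.17 and 0.22, beside a median of 0.22 for genes of at least 1000 FPKM.

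The comparison of nano-SiO2 with the control asks what the particle spray did to stressed leaves. Small chain levels were lower by point estimate and activase levels were close to the control, but no RuBisCO gene passed the test. The log2 change was -0.77 for Glyma.19G046800 (SE 0.34, 95% interval -1.50 to -0.04, adjusted p = 0.449), -0.75 for Glyma.19G046600 (SE 0.32, adjusted p = 0.440) and -0.63 for Glyma.13G046200 (SE 0.25, adjusted p = 0.406) by limma, with Benjamini-Hochberg adjustment over 28260 genes. The activases stood at -0.09 (SE 0.16, interval -0.43 to 0.25) and -0.02 (SE 0.18, interval -0.41 to 0.36) for Glyma.11G221000 and Glyma.18G036400. With 0 of 5 genes called at an adjusted p under 0.05, where 0.492% of all tested genes were called, 3 of 5 had an unadjusted p under 0.05, as did 10.7% of all genes. All 3 nano-SiO2 libraries were below all 3 controls for 2 of the 5 genes, an arrangement found for 3.78% of tested genes. The size of the small chain difference rested on single libraries. Without nano-SiO2 2 the log2 changes were -0.32, -0.37 and -0.38, without control 1 they were -0.55, -0.51 and -0.43, and without both they were -0.09, -0.13 and -0.18. The difference between small chain and activase response was not tested. Labels call the libraries biological replicates without naming separate plants or pots, so these p-values measure the spread between samples, which may be partly technical.

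With melatonin alone no RuBisCO gene passed the test. For both activases MT 1 and MT 2 lay above every control and MT 3 among them, and for the small chains MT 3 lay below every control while MT 1 and MT 2 lay among them. The log2 changes of MT against control were -0.08, -0.07 and -0.10 for the small chains in the order above and 0.23 and 0.21 for Glyma.11G221000 and Glyma.18G036400, with adjusted p between 0.527 and 0.956 by limma. Called genes were 0 of 5, beside 3.35% of all tested genes, and 0 of 5 had an unadjusted p under 0.05, beside 16.8%. The 95% interval for Glyma.19G046800 ran from -0.81 to 0.65, and that for Glyma.11G221000 ran from -0.10 to 0.57. For the 3 small chains the sign turned to 0.14, 0.17 and 0.10 without control 1, and to 0.10, 0.13 and 0.07 without MT 3.

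The combined spray was close to the control for the small chains and higher by point estimate for the activases. Log2 changes were 0.04, 0.04 and -0.03 for the small chains and 0.27 (SE 0.16) and 0.33 (SE 0.18) for Glyma.11G221000 and Glyma.18G036400, with adjusted p of 0.557 and 0.524 for the activases by limma. Again 0 of 5 genes were called, beside 1.37% of all genes, and 0 of 5 had an unadjusted p under 0.05, beside 12.1%. For 1 of 5 genes, Glyma.18G036400, all nano-SiO2+MT libraries were above all controls, which held for 7.13% of tested genes. The sign of the small chain changes was not fixed. That of Glyma.13G046200 was 0.04 under median-ratio scaling, and those of Glyma.19G046800 and Glyma.19G046600 were -0.11 and -0.12 without control 3.

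Against nano-SiO2 alone, the combined spray showed higher levels of all 5 RuBisCO genes, none past the threshold. The log2 change was 0.81 for Glyma.19G046800 (SE 0.34, 95% interval 0.08 to 1.54, adjusted p = 0.237), 0.80 for Glyma.19G046600 (SE 0.32, adjusted p = 0.221) and 0.60 for Glyma.13G046200 (SE 0.25, adjusted p = 0.234). For the activases it was 0.36 in Glyma.11G221000 (SE 0.16, adjusted p = 0.250) and 0.35 in Glyma.18G036400 (SE 0.18, adjusted p = 0.307). Called by limma were 0 of 5, beside 1.53% of all genes, and 4 of 5 had an unadjusted p under 0.05, beside 18.5%. For 5 of 5 genes every nano-SiO2+MT library was above every nano-SiO2 library, an arrangement held by 3.46% of tested genes in this direction and 19.5% in the other. The median over all tested genes was -0.15 in this comparison, and median-ratio scaling, which moves it to 0.00, gave log2 changes of 1.00, 0.99, 0.79, 0.55 and 0.54 with no gene called. Without nano-SiO2 2 the values were 0.35, 0.41, 0.35, 0.29 and 0.23.

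The remaining comparisons share these libraries. Nano-SiO2 against MT gave -0.69, -0.69 and -0.53 for the small chains and -0.32 and -0.23 for the activases (adjusted p between 0.236 and 0.460, 0 of 5 called, beside 3.16% of all genes, and 0 of 5 with an unadjusted p under 0.05, beside 21.2%). Nano-SiO2+MT against MT gave 0.04 to 0.12 over the 5 genes (0 called, beside 0.294%, and 0 with an unadjusted p under 0.05, beside 4.59%). The interaction, the MT difference in the presence of nano-SiO2 minus that in its absence, was 0.89 (SE 0.48), 0.86 (SE 0.45) and 0.70 (SE 0.35) for the small chains and 0.13 and 0.14 for the activases. Its adjusted p by limma was between 0.628 and 0.907, with 0 of 5 called beside 0.524% of all genes and 0 of 5 at an unadjusted p under 0.05 beside 8.55%. Without nano-SiO2 2 the small chain interaction was 0.44, 0.48 and 0.45. An F test over the 4 groups gave adjusted p of 0.359, 0.332, 0.322, 0.360 and 0.480, so that 0 of 5 genes were called among 4.12% of all genes, and 0 of 5 had an unadjusted p under 0.05 beside 18.9%. In the authors' deposited table, whose comparison is not named, the q-values of the 5 genes ran from 0.0673 to 0.165 and each is marked as not significant.

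**Figure D5:**
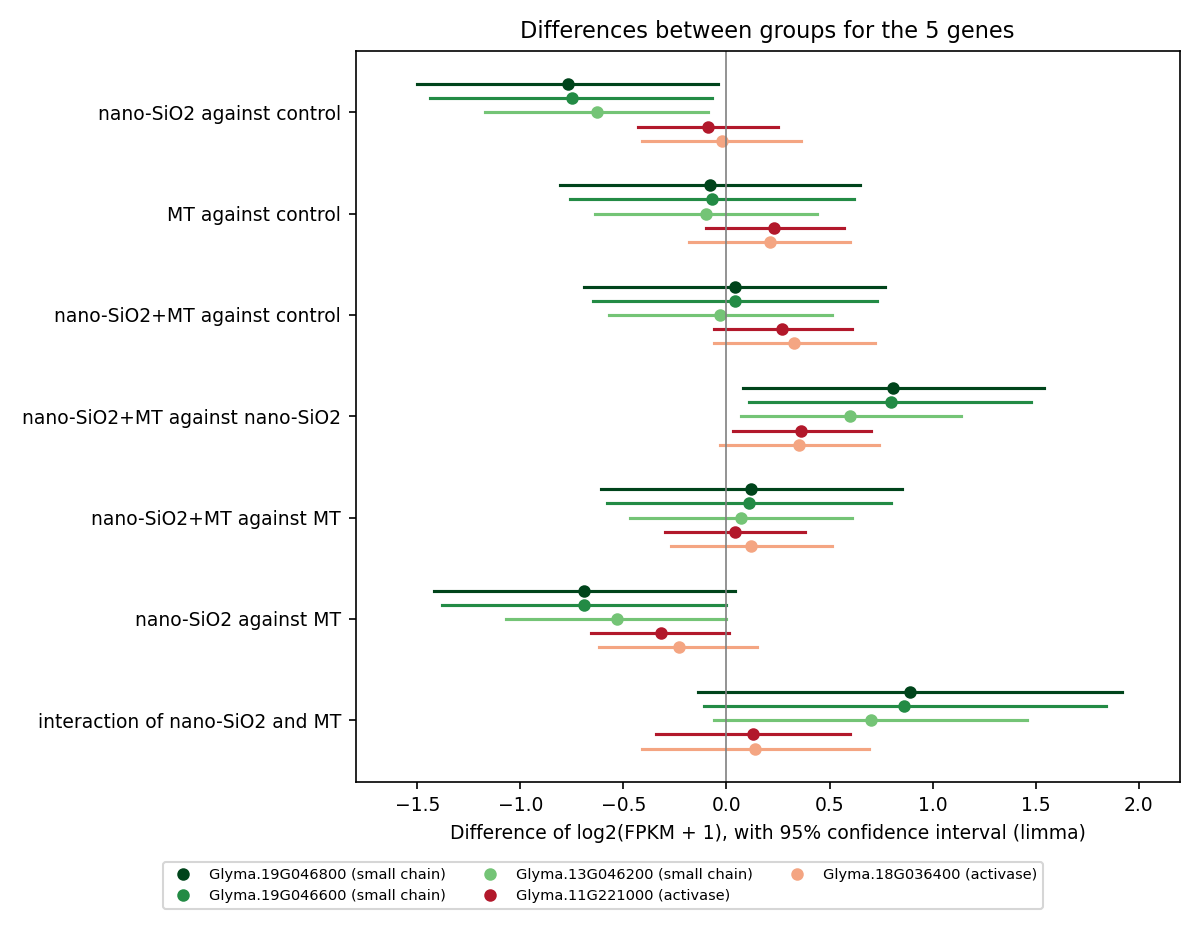
Difference of log2(FPKM + 1) (x axis) for the 5 genes in the 6 pairwise comparisons and the interaction (y axis); points are limma estimates and lines their 95% confidence intervals. Small chain intervals exclude 0 in nano-SiO2 against control and in nano-SiO2+MT against nano-SiO2. That of the activase Glyma.11G221000 also excludes 0 in the latter, but no gene passes after adjustment over 28260 genes.

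Other genes of the family were minor. The table describes 5 genes as small chain and 5 as activase, and the 3 small chains above held 99.8% of all small chain FPKM in every library, the 2 activases 90.1% to 92.7% of all activase FPKM. Glyma.19G047000, a further small chain on chromosome 19, had 88.8, 71.5 and 60.5 FPKM in the controls, 63.7, 30.7 and 58.2 with nano-SiO2, 74.4, 76.6 and 57.3 with MT and 67.8, 77.8 and 69.0 with both. It followed the abundant copies in being lowest in nano-SiO2 2 and highest in control 1, with a log2 change of -0.57 (SE 0.24, adjusted p = 0.428 by limma) in nano-SiO2 against control. The last described small chain, Glyma.13G097100, never exceeded 0.462 FPKM and was not tested. Of the other activases, Glyma.02G249600 had a mean of 661 FPKM, Glyma.13G371900 of 78.9 FPKM and Glyma.03G068100 of 5.77 FPKM. Glyma.02G249600 was highest in control 1 at 834 FPKM and lowest in MT 3 at 468 FPKM, and Glyma.13G371900 was nearly level, between 69.7 and 87.0 FPKM. None of the 4 tested genes was called in any of the 7 comparisons (0 of 4 by limma), beside 0.294% to 3.35% of all tested genes. At an unadjusted p under 0.05 stood Glyma.19G047000 in nano-SiO2 against control, beside 10.7% of all tested genes. In nano-SiO2+MT against nano-SiO2 Glyma.19G047000 and Glyma.03G068100 (at -0.27) stood there, beside 18.5%.

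Across the 12 libraries the small chains moved together and the activases moved together. Pearson's r of log2(FPKM + 1) was 0.979 to 0.994 between small chains, 0.963 between the activases and 0.711 to 0.758 between the kinds (0.586 to 0.700 over 11 libraries without nano-SiO2 2). These values describe libraries that share groups and depth and carry no test. Among 663 genes of at least 100 FPKM, the genes most like Glyma.19G046800 were Glyma.19G046600 (r = 0.99), the antenna gene Glyma.08G082900 (r = 0.99) and Glyma.13G046200 (r = 0.98), and the same antenna gene stood among the 3 nearest of each small chain. Nearest to Glyma.11G221000 were Glyma.18G036400 (r = 0.96), Glyma.01G180800, which has no named product (r = 0.96), and Glyma.11G228800, the antenna protein CP29.3 (r = 0.95). Nearest to Glyma.18G036400 were Glyma.06G015900, subunit B of the chloroplast glyceraldehyde-3-phosphate dehydrogenase of the Calvin cycle (r = 0.97), Glyma.04G015900, without a named product (r = 0.97), and Glyma.11G221000 (r = 0.96).

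RuBisCO is folded and assembled by chaperones. Of 24 tested assembly and modification genes, 4 were called by the F test (2 under median-ratio scaling), beside 4.12% of all tested genes. With MT against control 2 were called lower, beside 3.35% of all genes called in either direction. The list median there was -0.18, beside -0.05 over all tested genes. The most abundant, the RbcX-like gene Glyma.14G009900, had 207 ± 23.6, 198 ± 38.0, 217 ± 34.9 and 212 ± 34.3 FPKM and was not called. In cyanobacteria the protein RbcX assists assembly of large chains. Glyma.15G250500, a beta subunit of the large-subunit-binding chaperonin, had 23.4, 24.1 and 22.8 FPKM in the controls, 24.2, 19.3 and 27.2 with nano-SiO2, 14.1, 12.2 and 13.1 with MT and 13.2, 15.8 and 15.9 with both. Both groups that received MT lay below both groups that did not, and the gene fell by 0.79 on the log2 scale with MT against control (SE 0.13, adjusted p = 0.00619 by limma) and by 0.62 with nano-SiO2+MT against control (adjusted p = 0.0421). The first call held in all 17 other scalings and left-out libraries tried (adjusted p 0.00251 to 0.0397), whereas the second was lost in 11 of 17, among them median-ratio scaling, quantile normalization and leaving out control 1, 2 or 3, with an adjusted p of up to 0.203. Glyma.17G047200, a 20 kDa chaperonin that acts as its co-chaperonin, was low throughout, with 1.85, 1.80 and 1.74 FPKM in the controls, 1.02, 0.543 and 0.684 with nano-SiO2, 2.63, 1.74 and 2.46 with MT and 1.58, 2.16 and 1.89 with both. The nano-SiO2 libraries lay below all others, and the gene rose in nano-SiO2+MT against nano-SiO2 (log2 change 0.72, SE 0.15, adjusted p = 0.0320), while nano-SiO2 against control gave -0.69 (adjusted p = 0.0749). The rise was no longer called in 8 of the 17 settings, those without control 2, control 3, nano-SiO2 2, nano-SiO2 3 or any 1 of the nano-SiO2+MT libraries and the one without control 1 and nano-SiO2 2, where the adjusted p was highest at 0.127. The other called pair, named after its values were seen, were chaperonin subunits: Glyma.11G195900, an alpha subunit with a log2 change of -0.60 with MT against control (adjusted p = 0.0115, lost under median-ratio scaling and without MT 2, where it was 0.0573), and Glyma.08G175900, a beta subunit with -0.62 (adjusted p = 0.0554). In nano-SiO2 against MT all 4 genes were called by limma, 3 higher and 1 lower among the 24 tested, beside 3.16% of all genes. They had been picked by the F test over the same groups, so these calls are no independent support. Glyma.15G250500 stood at 0.78 (adjusted p = 0.00939, lost in 1 of 17 settings) and Glyma.17G047200 at -0.90 (adjusted p = 0.00717, lost in 0). Glyma.11G195900 stood at 0.48 (adjusted p = 0.0405, lost in 13) and Glyma.08G175900 at 0.72 (adjusted p = 0.0344, lost in 8).

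Of the rest of the Calvin cycle, like the RuBisCO genes themselves, no gene passed the test. Called were 0 of 32 tested genes by the F test, beside 4.12% of all tested genes, and 0 in any of the 7 comparisons by limma. An unadjusted F test p under 0.05 was reached by 4 of 32, beside 18.9% of all tested genes. The median log2 change of the 32 Calvin cycle genes was -0.03 in nano-SiO2 against control, beside 0.10 over all tested genes. The small chains stood at -0.77, -0.75 and -0.63 there and the activases at -0.09 and -0.02. In nano-SiO2+MT against nano-SiO2 the Calvin cycle median was 0.07, beside -0.15 over all tested genes. The small chains stood at 0.81, 0.80 and 0.60 there and the activases at 0.36 and 0.35. Under median-ratio scaling the Calvin cycle medians were -0.15, with 26 of 32 genes below 0, and 0.26, with 27 of 32 above 0, the signs of the small chains. The most abundant, Glyma.19G106800, subunit A of glyceraldehyde-3-phosphate dehydrogenase, had 2157 ± 517, 1929.9 ± 310.3, 2237 ± 638 and 2444 ± 251 FPKM in control, nano-SiO2, MT and nano-SiO2+MT. Photorespiration, which salvages the product of RuBisCO's reaction with oxygen, gave 0 of 27 called by the F test, beside 4.12% of all tested genes. It had 5 of 27 at an unadjusted p under 0.05, beside 18.9%. Its most abundant gene, the glycolate oxidase Glyma.08G175800, had 771 ± 55.8, 807 ± 48.0, 931 ± 108 and 926 ± 47.2 FPKM, and its list median was 0.17 with nano-SiO2 against control (0.05 under median-ratio scaling).

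Antenna genes, which bind chlorophyll and pass light energy to the photosystems, lay nearer to the small chains, and so did photosystem subunits. In nano-SiO2 against control 27 of 29 tested antenna genes had a log2 change below 0, beside 8753 of 28260 tested genes. Their median was -0.22, and 1 was called lower, beside 0.492% of all genes called in either direction. In nano-SiO2+MT against nano-SiO2 27 of 29 were above 0, beside 7171 of 28260, with a median of 0.32. Of these antenna genes 0 were called, beside 1.53% of all genes, and 10 had an unadjusted p under 0.05, beside 18.5%. Without control 1 the first antenna count was 21 of 29 with a median of -0.12 and 0 called. Without both control 1 and nano-SiO2 2 it was 17 of 29 with a median of -0.04, whereas the second antenna count was 28 of 29 with a median of 0.27. The antenna genes held 3.64% of summed FPKM in nano-SiO2 2 and 6.65% in control 1, the same extremes as for RuBisCO. Glyma.05G128000, the most abundant, had 7617, 4909.5 and 4666 FPKM in the controls, 4484, 2854 and 4563 with nano-SiO2, 5522, 5423 and 4197 with MT and 5994, 5946 and 4649.9 with both, and was not called (F test adjusted p = 0.403). The F test called 3 of 29 antenna genes, beside 4.12% of all tested genes. It called 1 under median-ratio scaling, 1 without nano-SiO2 2 and 0 without control 1. Of the 3, Glyma.16G165200, a light-harvesting protein of photosystem II, had 114, 83.2 and 83.5 FPKM in the controls, 45.4, 35.7 and 40.6 with nano-SiO2, 38.6, 33.1 and 37.4 with MT and 52.8, 66.3 and 30.0 with both. All sprayed libraries lay below the controls, and the gene fell by 1.18 with nano-SiO2 (SE 0.23, adjusted p = 0.0485) and by 1.33 with MT (SE 0.23, adjusted p = 0.00766) on the log2 scale. Its nano-SiO2 call was lost in 13 of the 17 settings, each control and each nano-SiO2 library left out included, with an adjusted p of up to 0.572, and its MT call in 0 of 17. Glyma.16G165500, another chlorophyll a-b binding protein, had 272 ± 50.7, 128 ± 21.2, 123 ± 6.32 and 154 ± 57.9 FPKM and fell by 1.12 with MT (adjusted p = 0.0267). The third, Glyma.16G165800, named after its values were seen, had 875 ± 107, 581 ± 33.3, 556 ± 42.1 and 616 ± 81.6 FPKM. With MT against control these 3 antenna genes were called lower, beside 3.35% of all genes called in either direction. Under median-ratio scaling 1 of them was called, and 1 without control 1. The antenna list as a whole was not lower with MT. In that comparison 18 of 29 antenna genes were above 0, beside 11518 of 28260 tested genes. The antenna median there was 0.04, beside -0.05 over all tested genes. The call of Glyma.16G165500 was lost in 8 of 17 settings (adjusted p up to 0.0922), those of each control or MT library left out included, and that of Glyma.16G165800 in 7 of 17 (up to 0.106), those of each control, MT 1 or MT 2 left out included. Photosystem subunits showed the same signs, with 16 of 16 below 0 in nano-SiO2 against control, beside 8753 of 28260 tested genes. Their median there was -0.18, beside 0.10 over all tested genes. In nano-SiO2+MT against nano-SiO2 15 of 16 were above 0, beside 7171 of 28260, with a median of 0.26 beside -0.15. The subunits' share of summed FPKM was highest in control 1, at 2.29%, and lowest in nano-SiO2 3, at 1.64%. The F test called 0 of 16, beside 4.12% of all tested genes, and 1 had an unadjusted p under 0.05, beside 18.9%. Plastocyanin Glyma.04G020300, which carries electrons to photosystem I, had 2348 ± 573, 1801 ± 164, 2349 ± 190.1 and 2316 ± 358 FPKM.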

How the data were processed

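Poly(A)-selected leaf mRNA was fragmented to about 200 bp, per the labels' protocols, and sequenced in 12 libraries (4 groups of 3). Gene values are FPKM computed by the authors and deposited with 1 column for each library. Neither labels nor headers name an aligner, a counting program or a strand setting; DESeq2 1.34.0 and R 4.1.2 appear in the submitters' processing notes. A deposited p-value and q-value per gene, of an unnamed comparison, were only described. Absolute depth is unknown, so no counting intervals are given.

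Here log2(FPKM + 1) of the 28260 genes reaching 1 FPKM in 3 or more libraries was fitted in 1 limma 3.58.1 model (R 4.3.3, trend and robust settings, a mean per group); a gene was called at a Benjamini-Hochberg adjusted p under 0.05, two-sided. Fold changes are on this scale, which understates changes of low genes. The fit was tested on simulated data. Levels, shares, ratios and correlations were computed with pandas 2.3.3 and carry no test. Members and gene lists, the latter matched by words in the gene descriptions, were chosen with earlier results of these data known. Genes outside the 5 were named by rule: each tested small chain and activase, each list's most abundant gene and up to 2 called by the F test, and the 3 genes most like each member. Of the table's identifiers 0 matched a RefSeq gene table of 59048 genes, so only chromosome numbers held in identifiers are given. Alternatives covered pseudocount, filter, scaling, replicate block, model settings and leaving out libraries.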

Additional observations from a re-analysis of the deposited data

How the results depend on the processing

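No setting tried called any of the 5 RuBisCO genes in any comparison: 814 values under 24 settings gave 0 calls, and adjusted p by limma ranged from 0.252 to 0.970 for Glyma.19G046800 in nano-SiO2 against control and from 0.158 to 0.618 in nano-SiO2+MT against nano-SiO2. Of the values recomputed, 1257 counted as unchanged, 62 moved and 36 turned sign, and the cause was not tested. A log2 change counted as unchanged when it did not turn sign and stayed uncalled, whatever its size. That of Glyma.19G046800 in nano-SiO2 against control ranged from -1.02 to -0.09 over the settings. F tests were likewise judged by the call alone, and counts, shares, ratios and SDs by size. Median-ratio scaling turned Glyma.13G046200 to 0.04 in nano-SiO2+MT against control and gave an SD of 0.26 for Glyma.11G221000; quantile normalization, which fixes the 3 small chains by construction, gave 0.10 for Glyma.18G036400 in nano-SiO2 against control and an SD of 0.08 for Glyma.11G221000. Over the sum without the 20 most abundant genes the combined group's share was 9.78%. Leaving out nano-SiO2 2, for the SD an alternative chosen after seeing the data, gave an SD of 0.31 for Glyma.19G046800. Leaving out control 1 and nano-SiO2 2 together turned nano-SiO2 against control to 0.10 and 0.22 for the activases, MT against control to 0.14, 0.17 and 0.10 for the small chains, Glyma.13G046200 to 0.17 in nano-SiO2+MT against control and the interaction of the activases to -0.06 and -0.11.

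Counts over all genes depended more on the settings. The main counts were 139 (nano-SiO2 against control), 948 (MT against control), 386 (nano-SiO2+MT against control), 432 (against nano-SiO2), 83 (against MT), 893 (nano-SiO2 against MT), 148 (interaction) and 1164 (F test). Without a filter the counts were 239 for nano-SiO2+MT against control, 229 against nano-SiO2, 521 for nano-SiO2 against MT and 766 for the F test. With a mean of at least 5 FPKM they were 69, 603, 273, 40, 446, 82 and 702, in the order above without nano-SiO2+MT against control. Fits of only the groups compared gave 124, 54 and 381 for nano-SiO2+MT against nano-SiO2, against MT, and nano-SiO2 against MT. Without control 1 and nano-SiO2 2 they were 29 for nano-SiO2 against control, 119 for nano-SiO2+MT against nano-SiO2, 341 for nano-SiO2 against MT, 71 for the interaction and 632 for the F test. Median-ratio scaling moved the share of higher calls from 20.1% to 46.0% in nano-SiO2+MT against nano-SiO2, from 76.3% to 45.2% in nano-SiO2 against MT, from 53.4% to 65.3% in nano-SiO2+MT against control and from 49.6% to 59.6% in MT against control.

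Leaving out 1 library at a time gave 43 to 173, 350 to 1098, 60 to 470, 103 to 535, 34 to 98, 227 to 977, 88 to 213 and 484 to 1080 called genes in the same order, lowest without control 2 (the first 3, the interaction and the F test), nano-SiO2 2 (nano-SiO2+MT against nano-SiO2) or MT 1. The log2 changes ranged from -0.17 to 0.02 (Glyma.11G221000) and -0.13 to 0.11 (Glyma.18G036400) in nano-SiO2 against control. For the small chains they ranged from -0.23 to 0.14, -0.23 to 0.17 and -0.25 to 0.10 in MT against control and from -0.11 to 0.26, -0.12 to 0.28 and -0.18 to 0.17 in nano-SiO2+MT against control. In nano-SiO2+MT against MT the 5 genes ranged from -0.06 to 0.26, -0.08 to 0.27, -0.09 to 0.21, -0.08 to 0.14 and -0.05 to 0.23, and the interaction of Glyma.18G036400 from -0.03 to 0.26.

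With the replicate number as a block, nano-SiO2+MT against nano-SiO2 gave 789 calls and nano-SiO2 against MT 1578, with 0 of the 5 genes called. Deviations of same-numbered libraries correlated at -0.34 to 0.53, and 9 of 18 pairs lay over 0.1. Differently numbered pairs correlated at -0.58 to 0.53, with 12 of 36 over 0.1, and 6 of 12 libraries correlated best with their own number. The numbers are not stated to mark a shared batch and were not taken to pair the samples, and these values do not settle the question. The settings given beside the gene lists and their named genes were chosen after seeing the data. With 3 libraries a group the 95% intervals of small chain differences were wide, such as -0.81 to 0.65 for Glyma.19G046800 in MT against control.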

Other observations

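The deposited annotation joins the activases to another pathway. All 5 genes described as RuBisCO activase carry the KO entry K02960 and with it the KEGG label "Ribosome", and 4 of the 10 genes with that entry are described as ribosomal protein S16. The 5 activases are 5 of 720 Ribosome-labelled genes but held 32.5% to 44.8% of that label's summed FPKM in the libraries analysed. With them, the mean summed FPKM of the label differed by 0.176% between MT and control and by 0.979% between nano-SiO2+MT and control. Without them the differences were -7.63% and -9.05%. For nano-SiO2 against control the values were -9.94% with and -12.6% without the activases, and for nano-SiO2+MT against nano-SiO2 12.1% and 4.08%. These are differences of group means of 3 libraries each and were not tested.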
